A study of Mus musculus with 8 samples.

Results

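The insulin-like growth factor (IGF) 1 receptor pathway was followed through 10 genes, the ligand Igf1, its receptor Igf1r, the binding proteins Igfbp2 to Igfbp7 and the receptor substrates Irs1 and Irs2, taken by gene name from the 49315 genes of each file. Each name occurred once, and 8 of the 10 genes reached 1 TPM (a level per transcript length that sums to 1000000 in each library) in at least 4 of the 8 libraries and were tested, while Igf1 and Igfbp2 did not. The libraries came from immortalized mouse embryonic fibroblasts of 2 kinds, 4 libraries of cells labelled Opa1-/- and 4 of cells labelled Opa1-/- + OPA1, in which OPA1 had been put back into the Opa1-/- cells. OPA1 is the dynamin-like GTPase that fuses mitochondrial inner membranes. By their labels both groups carry the loss of the mouse gene, and no wild-type cells were analysed here. All cells were grown in DMEM with 10% fetal bovine serum. The labels do not say how OPA1 was put back, whether either line was a clone, or whether the libraries of a group came from separate cultures, so a p-value here speaks only of how far the 4 libraries of a group scatter, and that scatter may be technical.

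IGF1 and IGF2 are secreted growth factors that bind the IGF1 receptor, a tyrosine kinase of the cell surface. The activated receptor phosphorylates the docking proteins IRS1 and IRS2, which recruit PI3-kinase and so switch on AKT and mTOR, and it feeds the RAS and ERK cascade through SHC and GRB2. IGF binding proteins hold the ligands outside the cell with high affinity, apart from IGFBP7, whose affinity is low, and proteases that cut the binding proteins set the ligands free.

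The depth recovered from the steps of the TPM values was 53020000 to 57720000 assigned reads per library. Levels below are TPM scaled between libraries, and differences are Opa1-/- minus Opa1-/- + OPA1 on the log2(scaled TPM + 1) scale, which understates the change of low genes. The mouse Opa1 gene was at 12.5 to 14.8 TPM in Opa1-/- libraries and 14.5 to 15.6 TPM in Opa1-/- + OPA1 libraries (difference -0.09, adjusted p = 0.305, limma-trend), so transcripts counted to the deleted gene were present in both groups and its total does not check the labels. Which part of the gene was deleted is not given in the labels. Fibroblast markers summed to 2717 to 2999 TPM in Opa1-/- libraries and 3164 to 3225 TPM in Opa1-/- + OPA1 libraries, with 1 of 9 tested markers higher and 5 lower. Vim and Fn1 averaged 1412 and 515 TPM in Opa1-/- libraries and 1368 and 531 TPM in Opa1-/- + OPA1 libraries, and did not pass. The higher marker was Col3a1, at means of 102 and 76.1 TPM. The 5 lower ones were S100a4 (-0.84), Col1a2 (-0.56), Dcn (-0.55), Col1a1 (-0.52) and Pdgfrb (-0.45). Col1a1 averaged 317 TPM in Opa1-/- libraries and 452 TPM in Opa1-/- + OPA1 libraries, and Col1a2 383 and 562 TPM. Lum, a fibroblast proteoglycan, was at most 0.0799 TPM in Opa1-/- libraries and 0.104 TPM in Opa1-/- + OPA1 libraries, while Pdgfra, a fibroblast receptor, averaged 0.392 and 0.811 TPM. Of the epithelial markers, 3 of 4 tested were higher (Cdh1, Krt8 and Krt19), with sums of 259 to 326.5 TPM in Opa1-/- libraries and 180.5 to 247 TPM in Opa1-/- + OPA1 libraries, and Epcam averaged 0.416 and 0.0975 TPM. Krt18, the most abundant of them, averaged 170 and 165 TPM and did not pass. Smooth muscle and pericyte markers summed to 509 to 767 TPM in Opa1-/- libraries and 671 to 929 TPM in Opa1-/- + OPA1 libraries. Of the 3 tested, Rgs5 was higher (0.91), Cnn1 was lower (-0.81) and Acta2, the most abundant, did not pass. Endothelial markers summed to 0.297 to 0.495 TPM in Opa1-/- libraries and 0.258 to 0.329 TPM in Opa1-/- + OPA1 libraries. Hepatocyte markers (Alb, Ttr and Apoa1) summed to 21.8 to 37.5 TPM and 21.4 to 32.7 TPM, and none of them passed. The part of these marker shifts in the results below was not tested, and in bulk RNA fewer cells of a type and less RNA per cell cannot be told apart. Between the groups, 33.0% of the 14272 genes tested passed adjusted p below 0.05, with 16.3% higher and 16.8% lower in Opa1-/- libraries.

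Of the 8 tested members, 2 were higher in Opa1-/- libraries (Igfbp5 and Igfbp6), 1 was lower (Igfbp4) and 5 did not pass. A count of 3 of 8 is near the 33.0% of all genes, so the number called says nothing particular about the pathway. The same 3 were the tested members whose groups did not overlap, which held for 36.3% of all genes tested. The 250 bases upstream of the RefSeq start of the 3 genes that changed are shown (GRCm38.p6, 5′ to 3′ on the strand of the gene), since the table held a start for all 10 members and these are the genes whose levels differed. Levels were counted per gene, so which start the transcripts used is not known. The Igfbp6 window ends at 102144185, short of the gene start at 102144362. The Igfbp5 window runs to 72874866, so its last bases lie inside the gene, which starts at 72874884. Capitals mark matches to TATAAA, the core of a TATA box, on either strand.
Igfbp5, chr1:72874866-72875115, minus strand: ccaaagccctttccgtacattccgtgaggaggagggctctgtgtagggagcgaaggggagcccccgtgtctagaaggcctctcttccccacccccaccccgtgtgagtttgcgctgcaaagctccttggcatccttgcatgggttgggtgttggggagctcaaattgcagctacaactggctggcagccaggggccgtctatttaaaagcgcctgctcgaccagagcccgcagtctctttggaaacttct
Igfbp6, chr15:102143936-102144185, plus strand: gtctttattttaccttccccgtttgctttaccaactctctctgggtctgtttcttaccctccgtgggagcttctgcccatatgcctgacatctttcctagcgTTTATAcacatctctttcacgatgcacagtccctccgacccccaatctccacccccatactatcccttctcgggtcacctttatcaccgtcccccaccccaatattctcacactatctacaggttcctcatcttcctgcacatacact
Igfbp4, chr11:99040994-99041243, plus strand: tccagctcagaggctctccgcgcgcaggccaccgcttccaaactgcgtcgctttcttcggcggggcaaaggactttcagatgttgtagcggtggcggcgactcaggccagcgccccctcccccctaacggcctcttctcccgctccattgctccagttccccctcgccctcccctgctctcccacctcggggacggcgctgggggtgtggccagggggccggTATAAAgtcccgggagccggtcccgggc

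Searched on both strands in the same windows were TATAAA, found in 12.4% of 32851 promoters of the table, GGGCGG (the GC box, 32.7%), CACGTG (an E-box, 6.02%), TGANTCA (the AP-1 motif, 6.75%), TGATGNAA (a composite ATF4 and C/EBP motif, 3.45%) and GTAAACA (a FOXO motif, 3.17%). A match describes letters and is no evidence of binding. The Igfbp4 window held TATAAA with its first base at -28 from the start, and the Igfbp6 window held it on the opposite strand at -148. The Igfbp5 window held none of the 6 motifs. GGGCGG was present in the windows of Igf1r, Igfbp7, Irs1 and Irs2 and in 1 of the 2 Igfbp2 windows, and absent from the other member windows. The Igf1r and Irs2 windows end at 67952256 and 11008930, short of the gene starts at 67952827 and 11008458. The Igf1 window and the Igfbp2 window without GGGCGG lie inside their genes. Whether any motif goes with a change in level was not tested, and nothing is drawn from so few windows. CACGTG was present upstream of both receptor substrates, at -115 for Irs1 and -44 for Irs2, and at -142 for Igfbp2. TGANTCA was present in the Igf1 window at -37 and in the Igfbp2 window without GGGCGG at -39. No member window held TGATGNAA or GTAAACA.

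Igfbp5 (ENSMUSG00000026185; GRCm38 chromosome 1, 72857932 to 72874884, minus strand, protein-coding) encodes a binding protein that also attaches to extracellular matrix. It was at 5.36, 5.03, 5.49 and 4.38 TPM in Opa1-/- libraries 1 to 4, and at 0.784, 0.789, 0.751 and 0.779 TPM in Opa1-/- + OPA1 libraries 1 to 4. The groups lay far apart, and every Opa1-/- + OPA1 library was below 1 TPM. The means were 5.06 ± 0.498 TPM and 0.776 ± 0.0170 TPM (SD, n = 4 each), a ratio of 6.53, resting on 509 to 610.05 recovered reads in Opa1-/- libraries and 84.9 to 89.8 in Opa1-/- + OPA1 libraries. The difference was 1.77 (SE 0.09, adjusted p = 5.57e-06, limma-trend), the 14th highest of the 14272 genes tested. Igfbp5 entered the test only through the Opa1-/- libraries, and with no filter on low values it remained at 1.77 with adjusted p = 6.91e-05. On recovered reads the difference was 2.69 (SE 0.13, adjusted p = 5.19e-08, limma-voom).

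Igfbp6 (ENSMUSG00000023046; chromosome 15, 102144362 to 102149511, plus strand, protein-coding) encodes the binding protein that prefers IGF2 to IGF1. It was at 117, 119, 116 and 126 TPM in Opa1-/- libraries 1 to 4, and at 86.2, 91.8, 77.4 and 81.7 TPM in Opa1-/- + OPA1 libraries 1 to 4. The lowest Opa1-/- library was above the highest Opa1-/- + OPA1 library. The means were 119.6 ± 4.47 TPM and 84.3 ± 6.18 TPM (SD, n = 4 each), with a difference of 0.50 (SE 0.06, adjusted p = 0.000254, limma-trend). After correction of each library for exon length and GC content it was 0.37 (adjusted p = 0.000112).

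Igfbp4 (ENSMUSG00000017493; chromosome 11, 99041244 to 99054392, plus strand, protein-coding) encodes a binding protein that the metalloprotease PAPP-A cuts. It was at 82.6, 85.9, 84.6 and 86.1 TPM in Opa1-/- libraries 1 to 4, and at 138, 140.0, 109 and 104 TPM in Opa1-/- + OPA1 libraries 1 to 4. The Opa1-/- libraries lay close together and below all Opa1-/- + OPA1 libraries, which were themselves spread, with libraries 1 and 2 above 3 and 4. The means were 84.8 ± 1.59 TPM and 123 ± 18.8 TPM (SD, n = 4 each), a ratio of 0.690, and the difference was -0.52 (SE 0.09, adjusted p = 0.00333, limma-trend).

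The abundant Igfbp7 and Igfbp3 did not pass. Igfbp7 (chromosome 5, 77349240 to 77408041, minus strand), the low-affinity member of the family, was at 375, 395, 298 and 395 TPM in Opa1-/- libraries 1 to 4, and at 322, 323, 338 and 329 TPM in Opa1-/- + OPA1 libraries 1 to 4. Opa1-/- library 3 was below every Opa1-/- + OPA1 library and the other 3 Opa1-/- libraries were above them all. The difference was 0.15 (SE 0.09, adjusted p = 0.216, limma-trend), and without Opa1-/- library 3 it was 0.24 (adjusted p = 0.00210), so 1 library decided this call. After correction for exon length and GC content it was 0.03 (adjusted p = 0.722). An 85-base stretch of its exons overlaps Polr2b on the opposite strand, 7.0% of its exon length, and reads there cannot be separated if counting ignored strand.

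Igfbp3 (chromosome 11, 7206086 to 7213923, minus strand), which carries most IGF in blood, was at 25.7, 25.1, 23.8 and 26.1 TPM in Opa1-/- libraries 1 to 4, and at 25.2, 25.0, 21.6 and 19.4 TPM in Opa1-/- + OPA1 libraries 1 to 4. It was higher in the Opa1-/- library in 4 of 4 pairs of the same number, but the groups overlapped, with Opa1-/- libraries 2 and 3 inside the range of the Opa1-/- + OPA1 libraries, and the difference was 0.14 (SE 0.08, 95% interval -0.04 to 0.33, adjusted p = 0.212, limma-trend). Igfbp2 (chromosome 1, 72824503 to 72852474, plus strand) ends 5457 bases from the 3′ end of Igfbp5, on the other strand. It was at 1.17, 0.748, 0.909 and 0.670 TPM in Opa1-/- libraries 1 to 4, and at 0.425, 0.729, 0.287 and 0.640 TPM in Opa1-/- + OPA1 libraries 1 to 4, or 23.96 to 39.05 against 9.98 to 24.96 recovered reads. Igfbp2 too was higher in the Opa1-/- library in 4 of 4 pairs of the same number, but the groups overlapped, and it did not pass on recovered reads (0.78, SE 0.32, adjusted p = 0.0750, limma-voom) or with no filter (0.30, adjusted p = 0.168, limma-trend).

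**Figure D1:**
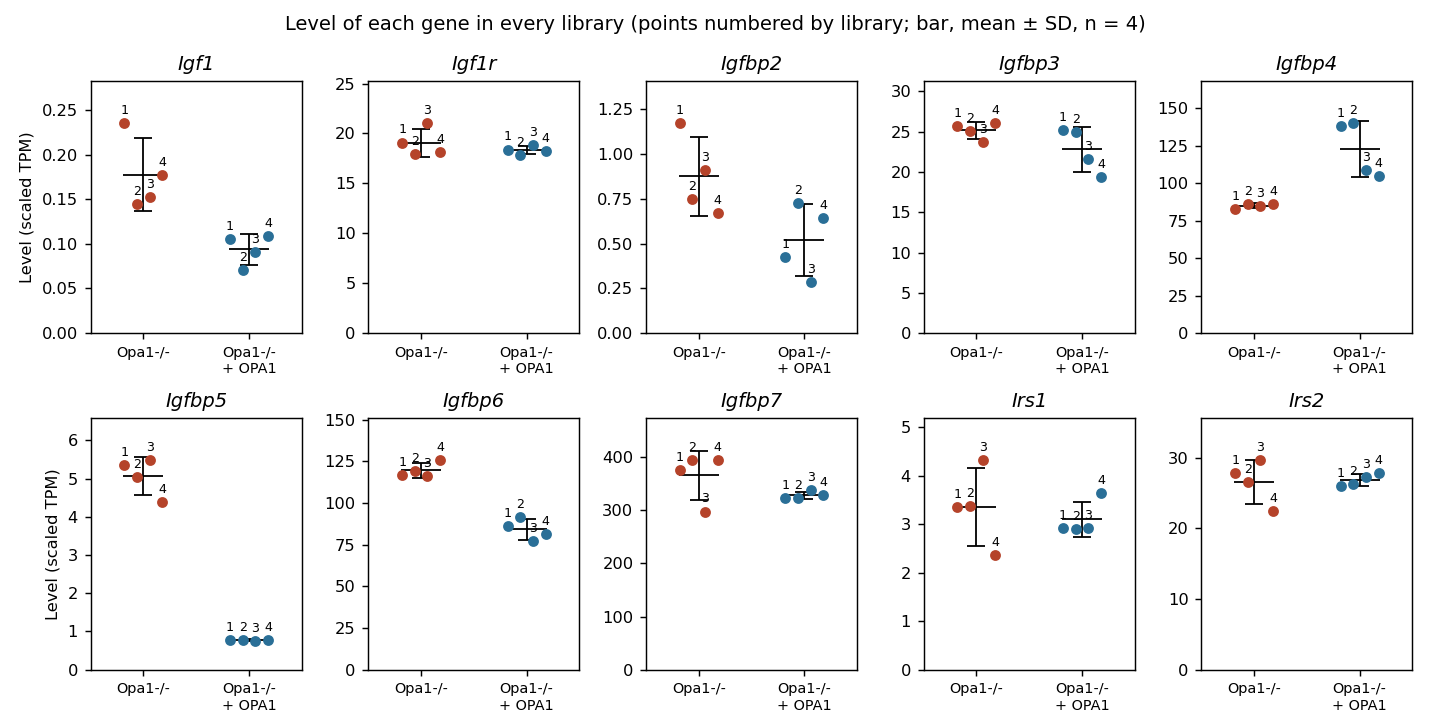
Level of the 10 genes in every library (scaled TPM, axes from 0), with points numbered by library, Opa1-/- left of Opa1-/- + OPA1, and bars for the mean and SD (n = 4 each). Igfbp5 sits at 4.38 to 5.49 TPM in Opa1-/- libraries and 0.751 to 0.789 TPM in Opa1-/- + OPA1 libraries, and Opa1-/- library 3 is the lowest point for Igfbp7.

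Since TPM is a level per length, the binding proteins can be set against each other within a library. Their order rests on the exon lengths, 1209 bases for Igfbp7, 1112 for Igfbp6 and 4416 for Igfbp4. By recovered reads, without length, Igfbp4 was above Igfbp6 in the Opa1-/- libraries too, at 6576 against 2342 reads in library 1. Igfbp2 to Igfbp7 together came to 529 to 638 TPM in Opa1-/- libraries and 536 to 581 TPM in Opa1-/- + OPA1 libraries, ranges that overlap. Igfbp7 made up most of the sum in both, 56.3% to 62.6% and 55.5% to 61.8%. The next places were exchanged. Igfbp6 took 18.9% to 21.99% of the sum in Opa1-/- libraries and 14.2% to 15.8% in Opa1-/- + OPA1 libraries, and Igfbp4 took 13.5% to 16.0% and 19.5% to 24.1%. Igfbp6 was thus above Igfbp4 in all 4 Opa1-/- libraries, by a ratio of 1.37 to 1.46, and below it in all 4 Opa1-/- + OPA1 libraries, at 0.625 to 0.782. This ratio does not depend on the scaling between libraries. Igfbp5 remained a small share, 0.686% to 1.04% and 0.136% to 0.145%, and Igfbp3 was 4.33 to 5.96 times the level of Igfbp5 in Opa1-/- libraries and 24.9 to 32.1 times in Opa1-/- + OPA1 libraries.

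**Figure D2:**
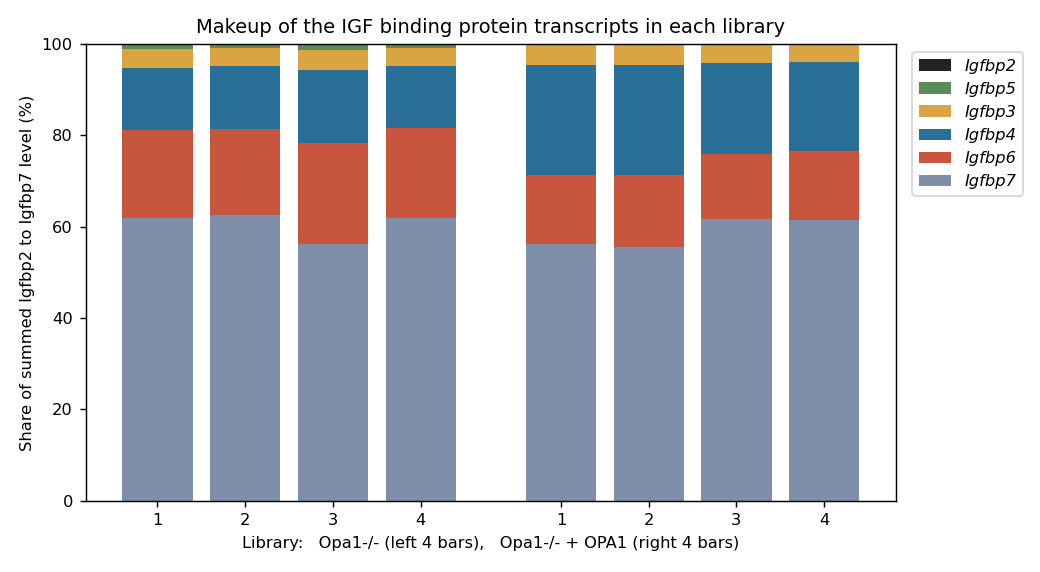
Share of each binding protein transcript in the summed level of Igfbp2 to Igfbp7 (percent, from 0 to 100), 1 bar per library, Opa1-/- libraries left. Igfbp6 takes a larger share than Igfbp4 in the 4 Opa1-/- bars and a smaller one in the 4 Opa1-/- + OPA1 bars.

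From high to low, the 10 genes ran Igfbp7, Igfbp6, Igfbp4, Irs2, Igfbp3, Igf1r, Igfbp5, Irs1, Igfbp2 and Igf1 by mean level in Opa1-/- libraries. In Opa1-/- + OPA1 libraries Igfbp4 stood above Igfbp6 and Irs1 above Igfbp5, with the rest in the same places. The ranges of neighbours in this order did not overlap within a group, except for Irs2 and Igfbp3 in Opa1-/- libraries.

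The ligand was scarce. Igf1 (chromosome 10, 87858265 to 87937042, plus strand) was at 0.236, 0.145, 0.153 and 0.177 TPM in Opa1-/- libraries 1 to 4, and at 0.106, 0.0707, 0.0911 and 0.109 TPM in Opa1-/- + OPA1 libraries 1 to 4. These values rest on 25.97 to 42.06 recovered reads in Opa1-/- libraries and 12.98 to 19.97 in Opa1-/- + OPA1 libraries, and the groups did not overlap. Its call differed between fits. On recovered reads it was higher in Opa1-/- libraries (0.89, SE 0.26, adjusted p = 0.0186, limma-voom, where 33.1% of 16854 genes passed), while with no filter it did not pass on the log2(scaled TPM + 1) scale (0.11, adjusted p = 0.0605, limma-trend) or with a pseudocount of 0.1 TPM (0.51, adjusted p = 0.136). Igf2, the other ligand, was at 0.0180 to 0.309 TPM in Opa1-/- libraries and 0.0189 to 0.213 TPM in Opa1-/- + OPA1 libraries, and the insulin genes Ins1 and Ins2 were listed at 0 in every library.

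The receptor Igf1r (chromosome 7, 67952827 to 68233668, plus strand) was at 19.1, 17.9, 21.05 and 18.1 TPM in Opa1-/- libraries 1 to 4, and at 18.4, 17.8, 18.9 and 18.3 TPM in Opa1-/- + OPA1 libraries 1 to 4. The groups overlapped, and the difference was 0.05 (SE 0.06, 95% interval -0.08 to 0.18, adjusted p = 0.535, limma-trend). After correction for exon length and GC content it was 0.14 (adjusted p = 0.0375), and 0.0546 with the replicate number as a block as well. Insr, the insulin receptor and closest relative of Igf1r, was at 5.02 to 5.86 TPM in Opa1-/- libraries and 6.69 to 7.09 TPM in Opa1-/- + OPA1 libraries (-0.29, SE 0.06, adjusted p = 0.00699, limma-trend). Insr lies on chromosome 8, where 524 genes had a median difference of -0.18, and relative to its chromosome Insr did not pass (-0.11, adjusted p = 0.216). The level of Insr was 0.277 to 0.307 of that of Igf1r in Opa1-/- libraries and 0.373 to 0.388 in Opa1-/- + OPA1 libraries. Igf2r, which takes IGF2 into lysosomes, did not pass (0.08, SE 0.09, adjusted p = 0.570).

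The substrates did not pass either. Irs1 (chromosome 1, 82233101 to 82291416, minus strand) was at 3.36, 3.37, 4.33 and 2.37 TPM in Opa1-/- libraries 1 to 4, and at 2.93, 2.91, 2.92 and 3.64 TPM in Opa1-/- + OPA1 libraries 1 to 4. Opa1-/- libraries 3 and 4 were the highest and the lowest of all 8, and the difference was 0.07 (SE 0.14, 95% interval -0.23 to 0.38, adjusted p = 0.717, limma-trend). Exons of Gm9747 on the opposite strand cover 30.9% of the Irs1 exon length, and Gm9747 was listed at 0 in every library. Reads there cannot be separated if counting ignored strand, which would affect the level of Irs1 and its ratio to Irs2. Irs2 (chromosome 8, 10984681 to 11008458, minus strand) was at 27.8, 26.5, 29.7 and 22.4 TPM in Opa1-/- libraries 1 to 4, and at 26.0, 26.3, 27.2 and 27.8 TPM in Opa1-/- + OPA1 libraries 1 to 4. The groups overlapped, with a difference of -0.02 (SE 0.08, 95% interval -0.19 to 0.16, adjusted p = 0.876). Irs2 was 6.86 to 9.43 times the level of Irs1 in Opa1-/- libraries and 7.64 to 9.32 times in Opa1-/- + OPA1 libraries.

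**Figure D3:**
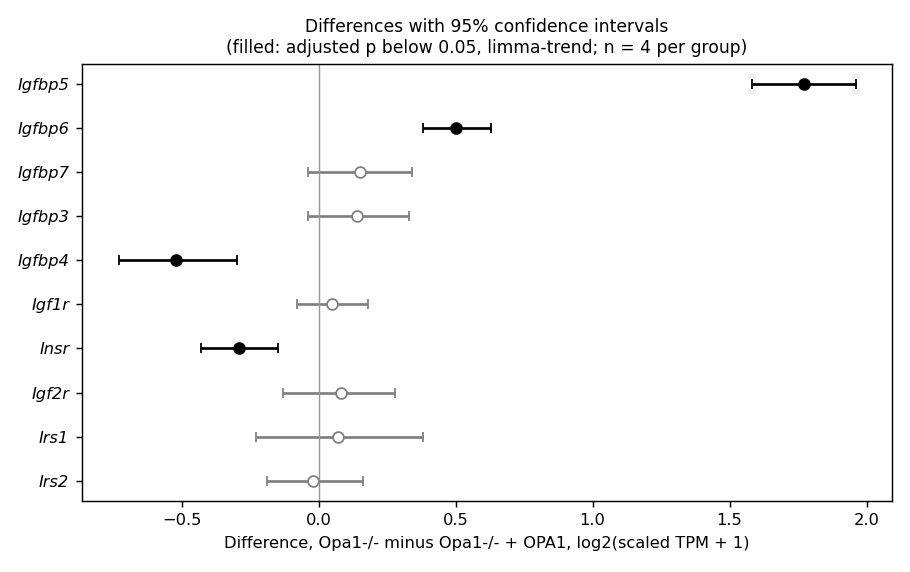
Differences of the tested members, Insr and Igf2r (Opa1-/- minus Opa1-/- + OPA1, log2 of scaled TPM + 1) with 95% confidence intervals from limma-trend, filled where adjusted p was below 0.05. Igfbp5 stands at 1.77, Igfbp6 at 0.50, Igfbp4 at -0.52 and Insr at -0.29, and the other intervals cross 0.

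Other genes of the pathway were followed in lists that hold 88 genes, of which 74 were tested. Of these, 18 were higher, 13 were lower and 43 did not pass, with a median difference of -0.05 beside -0.00 over all genes tested. Over all genes tested, 16.3% were higher and 16.8% lower, and the counts of the lists below are to be read against these shares, with nothing particular to a list drawn from them. Among proteases of the binding proteins and their inhibitors, 2 of 4 tested were higher and 0 were lower. Stc2, stanniocalcin 2, a secreted inhibitor of PAPP-A, was at 3.66, 3.61, 4.85 and 4.77 TPM in Opa1-/- libraries 1 to 4, and at 0.889, 0.854, 1.14 and 0.872 TPM in Opa1-/- + OPA1 libraries 1 to 4 (1.42, SE 0.11, adjusted p = 4.98e-05, limma-trend). The groups lay far apart, and of the Opa1-/- + OPA1 libraries only library 3 reached 1 TPM, so Stc2, like Igfbp5, entered the test through the Opa1-/- libraries; on recovered reads it was at 2.16 (adjusted p = 1.49e-06, limma-voom). Ctsd, the lysosomal protease cathepsin D, was at 190 ± 5.34 and 165 ± 2.69 TPM (SD, n = 4 each; 0.20, adjusted p = 0.00223), although relative to its chromosome's median it did not pass (0.09, adjusted p = 0.0727). Pappa, which encodes PAPP-A and is named after its values were seen, was below the filter at 0.346 to 0.467 TPM in Opa1-/- libraries and 0.650 to 0.787 TPM in Opa1-/- + OPA1 libraries, groups that did not overlap. On recovered reads Pappa was lower in Opa1-/- libraries (-0.71, adjusted p = 0.00208, limma-voom), and with no filter it was at -0.25 (adjusted p = 0.0274, limma-trend) or, with a pseudocount of 0.1 TPM, at -0.59 (adjusted p = 0.102). The rest of the list did not share its direction throughout. Pappa2 and Stc1, also below the filter, averaged 0.609 and 0.333 TPM in Opa1-/- libraries. In Opa1-/- + OPA1 libraries they averaged 0.455 and 0.252 TPM, and for both the groups overlapped. Htra1 and Adamts1 were tested and did not pass.

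Adaptors and feedback regulators of the receptors had 5 of 16 tested genes higher and 3 lower. Of the suppressors of cytokine signalling, Socs2 and Socs3 were higher and Socs1 was lower. Socs2, which restrains growth hormone signalling, was at 5.40 ± 0.816 TPM in Opa1-/- libraries and 2.08 ± 0.233 TPM in Opa1-/- + OPA1 libraries (SD, n = 4 each; 1.05, SE 0.11, adjusted p = 0.000156, limma-trend), and Socs3 was at 25.3 ± 0.474 and 16.7 ± 1.70 TPM (0.58, adjusted p = 0.000328). Socs1, named after its values were seen, was at 26.7 ± 0.966 TPM in Opa1-/- libraries and 31.0 ± 0.724 TPM in Opa1-/- + OPA1 libraries (-0.21, adjusted p = 0.00431). The other lower ones were Cblb, a ubiquitin ligase (-0.35, adjusted p = 0.00151), and Ptpn1, the phosphatase PTP1B that acts on the insulin receptor (-0.29, adjusted p = 0.00176).

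Genes of PI3-kinase and AKT had 1 of 16 higher and 3 lower, with a median of -0.14. Pik3cd and Pik3cb, catalytic subunits of PI3-kinase, were at 2.90 ± 0.448 and 14.4 ± 1.55 TPM in Opa1-/- libraries, and at 5.28 ± 0.569 and 19.0 ± 0.232 TPM in Opa1-/- + OPA1 libraries (SD, n = 4 each). Their differences were -0.69 (adjusted p = 0.00122) and -0.38 (adjusted p = 0.00387), and Phlpp2, an AKT phosphatase, was at -0.40 (adjusted p = 0.00215), or -0.22 relative to its chromosome's median (adjusted p = 0.0383). Gsk3a, a kinase that AKT inhibits, was higher by a small amount (0.17, adjusted p = 0.0231). Its call was lost on leaving out Opa1-/- library 1 or 2, or Opa1-/- + OPA1 library 2, 3 or 4 (adjusted p = 0.0553 to 0.0747), or both libraries 3 (0.0539). It was also lost with TPM as deposited (0.0675), after correction for exon length and GC content (0.10, adjusted p = 0.107; 0.0835 with the block as well) and relative to its chromosome's median (0.07, adjusted p = 0.343). Akt1, Akt2 and Pik3ca did not pass.

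Of the mTOR complex and its control, 4 of 14 were higher and 0 were lower. Ddit4, which encodes REDD1, an inhibitor of mTOR complex 1, was at 61.1 ± 3.00 TPM in Opa1-/- libraries and 29.3 ± 1.96 TPM in Opa1-/- + OPA1 libraries (SD, n = 4 each; 1.04, SE 0.06, adjusted p = 7.71e-06, limma-trend). Akt1s1 (PRAS40, an mTOR inhibitor that AKT phosphorylates), Eif4ebp1 (the translation repressor 4E-BP1) and Rheb (the GTPase that activates mTOR) were higher by 0.46, 0.33 and 0.20, and Rheb did not pass relative to its chromosome's median (0.14, adjusted p = 0.0679), where Eif4ebp1 was at 0.51 (adjusted p = 0.000273). Mtor, Rptor and Rictor did not pass.

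The RAS and ERK cascade had 2 of 10 higher and 3 lower. Map2k1, encoding MEK1, was at 76.1 ± 4.61 and 64.2 ± 0.594 TPM (SD, n = 4 each; 0.24, adjusted p = 0.00426) and Mapk3, encoding ERK1, was at 0.15 (adjusted p = 0.0124), a call lost without both libraries 3 (adjusted p = 0.0764), with TPM as deposited (0.108), after correction for exon length and GC content (0.08, adjusted p = 0.0784; 0.0997 with the block as well) and relative to its chromosome's median (0.05, adjusted p = 0.395). Relative to its own chromosome's median Map2k1 was at 0.15 (adjusted p = 0.0467). Araf, a RAF kinase, was at -0.18 (adjusted p = 0.0300). It lost its call without Opa1-/- library 1 or 2 or Opa1-/- + OPA1 library 3 or 4 (adjusted p = 0.0800 to 0.0838), without both libraries 3 (0.118), with TPM as deposited (0.127), with no filter (0.0530 at either pseudocount) and after correction for exon length and GC content (-0.12, adjusted p = 0.192; 0.118 with the block as well). Araf is X-linked, and the median difference of X-linked genes was -0.36. Relative to that median Araf was at 0.18 (adjusted p = 0.0404), in the other direction. Of FOXO factors and genes they induce, 4 of 12 were higher and 3 were lower. Foxo1 was at 2.53 ± 0.444 TPM in Opa1-/- libraries and 1.59 ± 0.201 TPM in Opa1-/- + OPA1 libraries (SD, n = 4 each; 0.44, adjusted p = 0.0170), a call lost with no filter (adjusted p = 0.0525) and without both libraries 3 (0.42, adjusted p = 0.0789), while Foxo3 was at 15.5 ± 1.35 and 21.9 ± 0.845 TPM (-0.47, adjusted p = 0.000682). Sesn2, a stress-induced inhibitor of mTOR complex 1, was at 0.72 (adjusted p = 0.000810) and Pdk4, a kinase that inhibits pyruvate dehydrogenase, at -0.41 (adjusted p = 0.0160). Irs2, itself a gene that FOXO factors induce, did not pass, as given above.

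**Figure D4:**
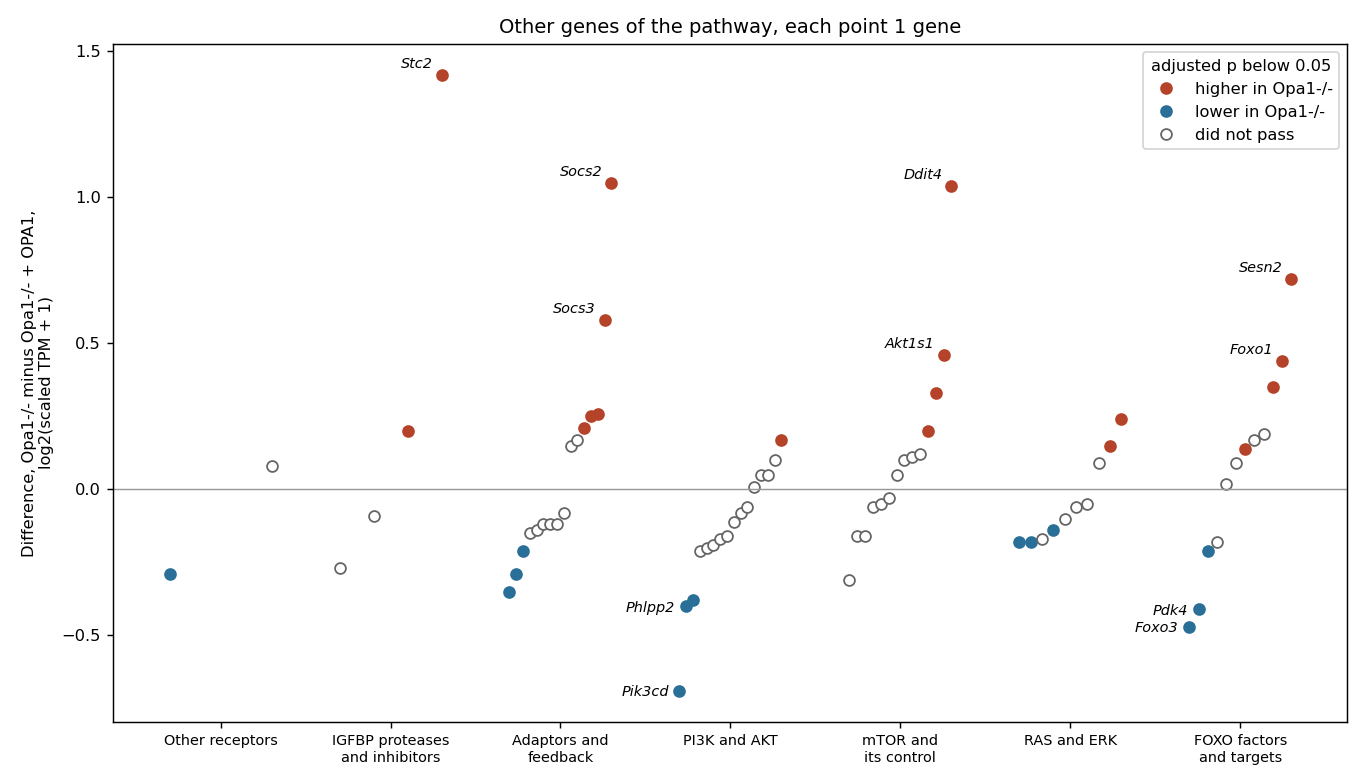
Differences of the 74 other tested genes of the pathway (Opa1-/- minus Opa1-/- + OPA1, log2 of scaled TPM + 1), 1 point per gene by list, red where higher, blue where lower and open where the gene did not pass. Stc2 at 1.42, Socs2 at 1.05 and Ddit4 at 1.04 stand highest, and Pik3cd at -0.69 lowest.

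The genes most like Igfbp5 over the 8 libraries, by Pearson correlation of log2(scaled TPM + 1), were Thbs2 (0.999), Nptx1 (0.998), Wasf3, Fez1 and Myo5c (0.997 each). Thbs2, which encodes the matrix protein thrombospondin 2, averaged 12.8 TPM in Opa1-/- libraries and 4.88 TPM in Opa1-/- + OPA1 libraries, and Nptx1, a secreted pentraxin, 22.9 and 7.49 TPM. Those most like Igfbp4 were Insig1 (0.976), Ugcg (0.974), Yipf6 (0.968), Dcn (0.966) and Setdb2 (0.963). Dcn, the matrix proteoglycan decorin, averaged 23.2 and 34.5 TPM, and Insig1, a sterol-sensing protein, 87.1 and 98.5 TPM. The 8 libraries fall into 2 groups and share their scaling, so these values describe likeness in these libraries only.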

How the data were processed

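RNA sequencing of 8 libraries was analysed, 4 labelled Opa1-/- and 4 labelled Opa1-/- + OPA1. RNA came from an RNeasy Plus extraction and was made into NEBNext Ultra II libraries, per the labels' protocols. The submitters' processing notes name STAR 2.5.2b, Subread 1.5.2, featureCounts and bcl2fastq 2.17, and 2 builds without their roles, GRCh38 and mm10. Strand use in counting was not given in the sources. The authors deposited TPM values per gene, per the file headers, and each file sums to 1000000 TPM.

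Positions and exon lengths came from GENCODE M21 (GRCm38), which held 49056 of 49315 gene identifiers, and upstream sequences from the RefSeq promoter table of GRCm38.p6. TPM times exon length moves in steps of 1 read, from which reads were recovered, and 94.7% to 95.1% of low values were whole within 0.05 of a read. The depth was 53020000 to 57720000 assigned reads per library.

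Scaling used an unweighted trimmed mean of log ratios, with 30% of the ratios and 5% of the levels trimmed at each end. Genes that reached 1 TPM in 4 or more libraries were fitted with limma-trend (limma 3.58.1, R 4.3.3) on log2(scaled TPM + 1), two-sided, with Benjamini-Hochberg adjustment over all 14272 genes tested and calls below 0.05. The procedure was also run on simulated libraries with independent noise and few changed genes. That setting is simpler than these data, so it does not show how the fit behaves here. Tables and plots used Python 3.11.15, numpy 2.4.6, pandas 2.3.3 and matplotlib 3.10.9.

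Libraries with the same number deviated together from their group means (r = 0.25, 0.22, 0.32 and 0.12 for numbers 1 to 4, over 9416 genes; pairs of unlike number ran from -0.32 to 0.11, close to the value of number 4), so by this criterion the numbers pair the libraries, and the replicate number was tried as a block. Other alternatives were other scalings, filters and pseudocounts, correction of each library for exon length and GC content (natural splines, 4 degrees of freedom), subtraction of each chromosome's median, protein-coding genes only, and libraries left out. An unfiltered fit with a pseudocount of 0.1 TPM and limma-voom on recovered reads, for genes with 10 reads or more in at least 4 libraries, were added after seeing the data.

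The members, the pathway lists and the tests were chosen with earlier results of these data known. Genes named are Opa1, the 10 members, Igf2, Igf2r and Insr, and up to 4 called genes with the largest change per list, plus the 5 genes most correlated with the highest and the lowest called member. Some genes that this rule names are not reported here. Other genes were named after their values were seen.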

Additional observations from a re-analysis of the deposited data

Results flagged for a closer look

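In 5 of 72 sets of 4 libraries, each set 1 gene in 1 group, a single library stood far from the other 3, measured as its gap to the nearest one over the range of the set (Dixon's criterion). Chance flags about 1 in 20 such sets, and all 5 were in Opa1-/- + OPA1 libraries. Irs1 had a gap of 0.975 of its range, with library 4 at 3.64 TPM and the others at 2.91 to 2.93 TPM. Opa1 had 0.958, with library 1 at 15.6 TPM and the others at 14.5 to 14.6 TPM. Pik3cd had 0.940, with library 3 at 6.13 TPM above 4.95 to 5.02 TPM. Stc2 had 0.874, with library 3 at 1.14 TPM above 0.854 to 0.889 TPM. Insr had 0.848, with library 2 at 6.69 TPM below 7.03 to 7.09 TPM.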

How the results depend on the processing

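The calls of Igfbp4 and Igfbp6 held under every alternative run, and that of Igfbp5 under every one that tested it; requiring 1 TPM in all 8 libraries removed Igfbp5, which left 1 member higher by construction. Among all genes, 4714 were called, 3551 to 5437 when 1 library was left out, and 4756 with the replicate number as a block, which called the same number of members, 3, and changed no call among them. Fits with 1 library or both libraries 3 left out tested genes at 1 TPM in 3 or more libraries, not 4, so their gene sets differ. Leaving out 1 library gave 3 to 4 called members, 2 to 3 higher and 1 lower, and 1735 to 2694 genes higher and 1816 to 2743 lower. The count of lower genes was 2392, against 1529 for TPM as deposited and 1562 with chromosome medians removed. With chromosome medians removed, Igf1r turned to -0.06, Irs2 to 0.16 and Araf to 0.18. Leaving out 1 library gave Irs1 at -0.03 (without Opa1-/- library 3) to 0.19, Irs2 at -0.07 to 0.06 (without Opa1-/- library 4), and Igf2r at -0.00 without Opa1-/- library 3. Without both libraries 3 Irs1 was at -0.05. The cause was not tested. Over named genes and alternatives, 645 values kept direction and side of the threshold, 36 lost the call, 3 gained it and 7 turned. Igf1 and Igfbp2 rest on 9.98 to 42.06 reads per library, which limits their precision.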

Other observations

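Genes within 500 kb of the 3 members that changed were read as a description of their surroundings. Over all genes tested 33.0% were called, and nothing particular to these surroundings is drawn from their counts. Around Igfbp5, 3 of 15 genes were tested and 1 was higher, Smarcal1 at 0.23 (adjusted p = 0.0106, limma-trend), while Xrcc5 was at 0.03 and Rpl37a at 0.08. Around Igfbp4, 6 of 20 tested genes were higher and 1 was lower, with a median of 0.06. Around Igfbp6, 4 of 25 were higher and 3 were lower, with a median of 0.06.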
